A study of Homo sapiens with 6 samples.

Results

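Nonsense-mediated mRNA decay (NMD) factors were examined in DU145 cells with and without added TFEB. The genes were chosen by name, as UPF1, UPF2, UPF3A, UPF3B, SMG1, SMG5, SMG6, SMG8 and SMG9, after the large decrease of UPF2 between these same libraries was known. Of these 9 genes, 5 had a row among the 10542 genes of the authors' table, namely UPF1, UPF2, UPF3B, SMG1 and SMG5. UPF3A, SMG6, SMG8 and SMG9 were not analysed here. Because the genes were chosen with this comparison in view, their values are given as a description and no p-value is given for any of them.

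DU145 is a cell line established from a human prostate cancer. DU145-TFEB cells were transduced with a lentivirus that overexpresses TFEB, a transcription factor of lysosomal genes, and DU145-vector cells with the blank vector lentivirus. Both were made stable by puromycin selection, and they share the viral vector. Each group is a stable line of its own, so the insert and any other difference between the lines cannot be told apart. There were 3 mRNA libraries of each group, and nothing in the labels says that they came from separate cultures.

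NMD degrades mRNAs whose translation stops too early, and it also sets the level of many normal transcripts. UPF1 is an RNA helicase that is loaded at a terminating ribosome. UPF2 is the adaptor that joins UPF1 to UPF3B, and UPF3B contacts the exon junction complex left on the mRNA by splicing. The kinase SMG1, held in check by SMG8 and SMG9, phosphorylates UPF1, and the phosphorylated UPF1 recruits SMG5 and SMG6, which bring about the cleavage or decay of the mRNA. UPF3A is the paralog of UPF3B.

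The 6 libraries held between 13999961 and 16511477 reads on the listed genes. TFEB had 6036 to 6325 normalized counts in DU145-TFEB and 123.9 to 127.4 in DU145-vector, as the labels state. A normalized count is the number of reads on a gene divided by the size factor of its library. The table lists only genes with a deposited adjusted p-value below 0.05, so that a difference between these same libraries put each gene on it. The median log2 fold change of all listed genes was -0.36. Of the epithelial markers examined, KRT8, KRT18 and KRT19 were listed, and all 3 were lower in DU145-TFEB. KRT8 had 14615 to 20808 normalized counts in DU145-TFEB and 24614 to 28109 in DU145-vector. The log2 fold changes of KRT8, KRT18 and KRT19 were -0.68, -0.78 and -0.38, none of them called, and -1.40, -1.56 and -1.44 with the trend against GC content and gene length removed, where KRT18 was called. The luminal markers KLK3, KLK2 and TMPRSS2 and the stromal and leukocyte markers were not analysed here.

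TFEB binds the E-box CACGTG, so the promoters of the members were read for it. RefSeq gives 7 promoter windows of 300 bases for the 5 genes, from 250 bases before to 50 bases after the start site (GRCh38.p14). CACGTG, which reads the same on both strands, was present in 1 of the 7 windows, and 7.26% of the 35116 RefSeq promoter windows of this length hold it. The longer form TCACGTGA was present in 0 of the 7 windows, against 0.98% of all windows. The window with the motif belongs to UPF2, on the minus strand at chr10:12043121-12043420, and the motif starts 237 bases before the start site. It is shown beside that of UPF1, on the plus strand at chr19:18831709-18832008, since these 2 genes lay furthest apart in the RNA data. Capitals mark CACGTG.
UPF2: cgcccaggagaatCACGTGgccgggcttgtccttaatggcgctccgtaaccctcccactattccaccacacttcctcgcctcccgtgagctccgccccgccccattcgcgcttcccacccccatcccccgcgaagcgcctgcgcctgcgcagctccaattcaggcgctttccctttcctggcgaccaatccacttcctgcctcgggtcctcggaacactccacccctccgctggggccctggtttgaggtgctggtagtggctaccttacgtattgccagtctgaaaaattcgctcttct
UPF1: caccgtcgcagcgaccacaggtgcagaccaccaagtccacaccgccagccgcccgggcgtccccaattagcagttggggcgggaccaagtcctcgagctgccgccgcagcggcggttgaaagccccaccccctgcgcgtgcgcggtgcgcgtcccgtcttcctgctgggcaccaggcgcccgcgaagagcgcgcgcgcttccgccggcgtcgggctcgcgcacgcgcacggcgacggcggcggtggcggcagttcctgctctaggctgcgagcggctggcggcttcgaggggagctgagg
The other start site of UPF2 and the windows of UPF3B, SMG1 and SMG5 held no CACGTG. The UPF1 window had a GC content of 74.3%, the UPF2 window of 62.7%. A match of these letters is a description of the sequence and was not tested as a binding site.

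UPF2, UPF3B and SMG1 were lower in DU145-TFEB, while UPF1 was higher. SMG5 was slightly higher with the authors' scaling and lower once the trend with GC content and length was removed. Hence the adaptor, the protein that links it to the exon junction complex and the kinase were lower at the RNA level. The helicase they act on was higher with the authors' scaling, with a log2 fold change of 0.97. With that trend removed it was only slightly higher, with 0.15. The groups did not overlap for any of the 5 genes, nor did they for 99.3% of all listed genes. The study's cutoffs, 0.05 for the adjusted p-value (here from limma) and 1.5 for the size of the log2 fold change, were both passed by 3 of the 5 genes, all lower. Of all listed genes 16.5% were called lower, 2.54% higher and 19.1% in either direction. Lower genes made up 86.7% of these calls, or 58.9% with quantile normalization. With the adjusted p-value alone, 52.4% of all listed genes were lower and 47.6% higher. That cutoff was passed by 10539 of the 10542 genes, so the calls rest on the fold change. RNA was measured in bulk, so fewer cells with a transcript and less of it per cell cannot be told apart.

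**Figure D1:**
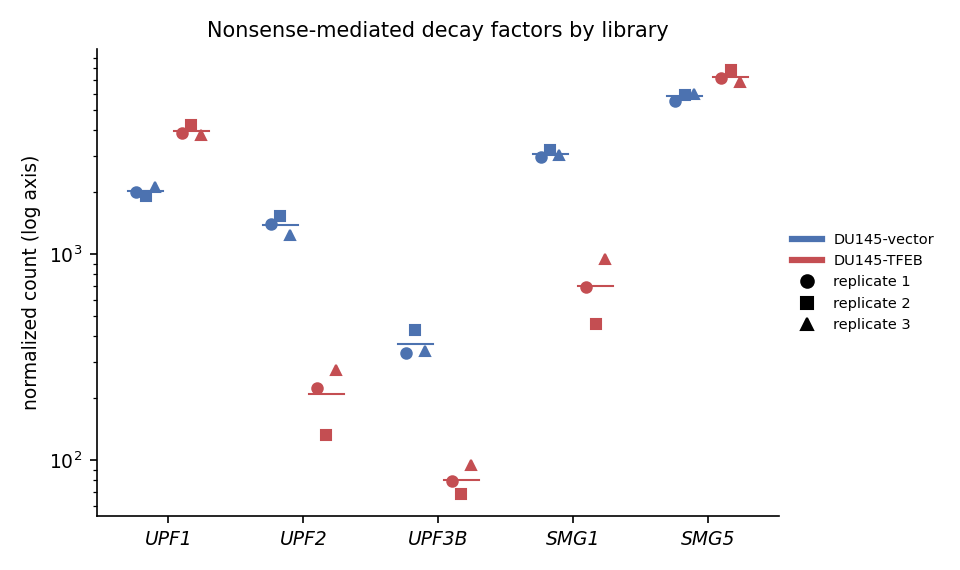
Normalized counts on a log axis for the 5 NMD factors in the 3 DU145-vector libraries (blue) and the 3 DU145-TFEB libraries (red). Symbols give the replicate and horizontal lines the group mean; UPF2, UPF3B and SMG1 lie lower in DU145-TFEB, UPF1 and SMG5 higher, and the groups do not overlap for any of the 5 genes.

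UPF2 (ENSG00000151461) occupies positions 11920022 to 12043170 of chromosome 10 (GRCh38, minus strand). Its normalized counts were 224, 133 and 273 in the DU145-TFEB libraries 1 to 3, and 1402, 1526 and 1243 in the DU145-vector libraries 1 to 3. All 3 DU145-TFEB libraries lay far below the lowest DU145-vector library, and DU145-TFEB replicate 2 was the lowest of all. The group means were 210.0 ± 71.2 and 1390.3 ± 142 (SD, n = 3 per group), a 6.62-fold lower level in DU145-TFEB. The log2 fold change was -2.78 (standard error 0.23), with 43 of the 10542 listed genes lower still. These values rest on 146 to 1565 reads per library, and counting alone gives a coefficient of variation of 8.28% at 146 reads. The coefficient of variation between libraries was 33.9% in DU145-TFEB and 10.2% in DU145-vector.

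UPF3B (ENSG00000125351), on chromosome X from 119805311 to 119852998 on the minus strand, was the least abundant of the 5 genes by normalized count. Its normalized counts were 78.9, 68.2 and 94.5 in DU145-TFEB against 331, 429 and 340 in DU145-vector. The highest DU145-TFEB value was thus well under the lowest DU145-vector value. The means of 80.6 ± 13.2 and 367 ± 54.1 (SD, n = 3 per group) correspond to a log2 fold change of -2.18 (standard error 0.17), or a 4.55-fold lower level in DU145-TFEB. The lowest library held 75 reads on this gene.

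SMG1 (ENSG00000157106) lies on chromosome 16 from 18804853 to 18926454 on the minus strand. Its normalized counts were 690, 457 and 949 in DU145-TFEB and 2975, 3215 and 3049 in DU145-vector. The DU145-vector libraries were close to each other, whereas the DU145-TFEB libraries were spread widely, with coefficients of variation of 3.99% and 35.2%. The means were 699 ± 246 and 3079 ± 123 (SD, n = 3 per group), and the log2 fold change -2.20 (standard error 0.21). In GENCODE 29, the antisense gene AC138811.1 overlaps SMG1 from 18803083 to 18812181, and the sources used here do not say if the counting kept strands apart.

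SMG1 has several near-identical copies on the same chromosome, so reads may be shared among them, and the counting of reads with several matches is not given in the sources used here. Of 7 pseudogenes, 5 were listed, and all 5 were lower in DU145-TFEB, SMG1P1 with 2 exceptions of scaling named below. SMG1P7 had 17.9, 26.4 and 22.8 normalized counts in DU145-TFEB and 128, 171 and 134 in DU145-vector. It was the only one of the 5 that was called, with a log2 fold change of -2.64. The log2 fold changes of SMG1P3, SMG1P5 and SMG1P2 were -1.17, -1.11 and -1.03. SMG1P1, the most abundant pseudogene, had -0.41, but 0.06 with quantile normalization and 0.15 with the GC and length trend removed. Each pseudogene had a lower count than SMG1 in every library.

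UPF1 (ENSG00000005007) lies on chromosome 19 from 18831938 to 18868236 on the plus strand. It had 3864, 4240 and 3781 normalized counts in DU145-TFEB and 2005, 1928 and 2132 in DU145-vector. Every DU145-TFEB library was above every DU145-vector library, with little spread within the groups. The means were 3962 ± 245 and 2022 ± 103 (SD, n = 3 per group), a 1.96-fold higher level, and the log2 fold change was 0.97 (standard error 0.07). This was below the cutoff of 1.5. UPF1 thus lay above 90.8% of the listed genes in its log2 fold change.

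SMG5 (ENSG00000198952), on chromosome 1 from 156249224 to 156282825 on the minus strand, was the most abundant of the 5. Its normalized counts were 7159, 7802 and 6837 in DU145-TFEB and 5570, 5957 and 5976 in DU145-vector. The groups were close but did not overlap. The means were 7266 ± 491 and 5835 ± 229 (SD, n = 3 per group), 1.25-fold higher in DU145-TFEB. The log2 fold change was 0.32 (standard error 0.07). It turned to -0.53 with the GC and length trend removed, where the median of all listed genes was -0.30.

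Levels can be compared between genes only per length. Per kilobase of the deposited gene length, which for these 5 genes equals the merged exons of GENCODE 29, UPF1 and UPF2 were alike in DU145-vector, with levels of 235.1 ± 12.0 and 235.4 ± 24.0 (SD, n = 3). In DU145-TFEB, the level per kilobase was 461 ± 28.5 for UPF1 and 35.6 ± 12.1 for UPF2 (SD, n = 3). The ratio of UPF1 to UPF2 was 0.98, 0.87 and 1.18 in DU145-vector and 11.8, 21.9 and 9.51 in DU145-TFEB. The ratio depended on the length used, and with the longest transcript it ran from 1.32 to 1.79 in DU145-vector and from 14.4 to 33.2 in DU145-TFEB. The direction of the difference was the same with either length. These ratios keep the trend with GC content and length. With it removed, UPF1 had a log2 fold change of 0.15 in place of 0.97, and UPF2 of -1.97 in place of -2.78. The 2 genes thus lay less far apart on that scale.

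The other pairs were also set apart. Per kilobase, UPF1 over UPF3B ran from 1.61 to 2.25 in DU145-vector and from 14.3 to 22.3 in DU145-TFEB, and UPF1 over SMG1 from 1.81 to 2.11 and from 12.0 to 28.1. The trend with GC content and length is kept here as well. With it removed, UPF3B had a log2 fold change of -1.71 in place of -2.18, and SMG1 of -1.37 in place of -2.20. Between the genes that were both lower, the ratio moved far less, with UPF2 over UPF3B at 1.99 ± 0.19 and 1.33 ± 0.28. SMG5 had the highest level per kilobase in both groups, 1100.0 ± 43.2 in DU145-vector and 1369.9 ± 92.6 in DU145-TFEB. The order of the other genes depended on the length used. Per kilobase of merged exons, UPF2 and UPF1 did not differ beyond their spread in DU145-vector, nor did UPF3B and SMG1, but with the longest transcript UPF1 was above UPF2 (378 ± 19.2 against 249.7 ± 25.5) and SMG1 above UPF3B (191 ± 7.62 against 154 ± 22.8; SD, n = 3). In DU145-TFEB, UPF2 was above SMG1 in each library with the former length (37.9 against 26.6, 22.5 against 17.6 and 46.2 against 36.5) and below it in each library with the latter (40.2 against 42.8, 23.9 against 28.3 and 49.04 against 58.9). UPF1 was above UPF2, SMG1 and UPF3B in every DU145-TFEB library with either length.

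The members that were lower and those that were higher also differed in composition. The longest transcripts of UPF2, UPF3B and SMG1 had a GC content of 40.3%, 41.8% and 43.2%, and those of SMG5 and UPF1 of 57.6% and 60.5%. The listed genes were divided into 5 bins of equal size by GC content, and their log2 fold changes followed the same line. The median was -1.10 in the bin that holds UPF2, UPF3B and SMG1 (40.2% to 44.4% GC), 0.54 in that of SMG5 and 0.66 in that of UPF1. Among the 2107 genes of the bin with UPF2, 28.1% were called lower, and 12 had a lower log2 fold change than UPF2, 87 than SMG1 and 93 than UPF3B. UPF1 lay above 78.7% of the genes of its own bin and SMG5 above 18.1%.

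**Figure D2:**
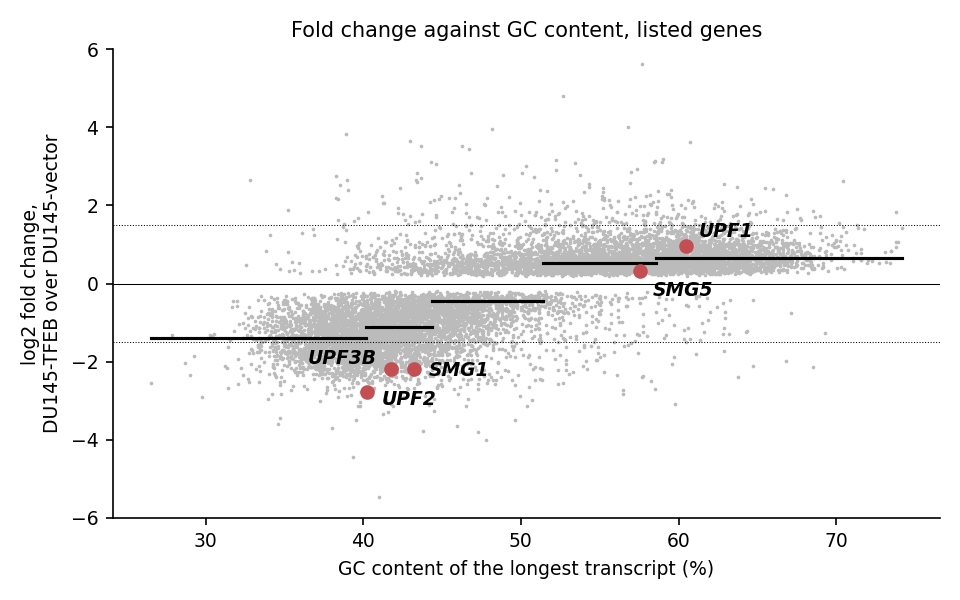
Log2 fold change of DU145-TFEB over DU145-vector against the GC content of the longest transcript for the listed genes (grey points), with the 5 NMD factors in red. Black bars give the median of each of the 5 GC bins, from -1.38 at low to 0.66 at high GC content; UPF2, UPF3B and SMG1 lie under their bar, and dotted lines mark the cutoff of 1.5.

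GC content also set apart libraries within a group, and the members moved with this. In each library, each gene's log2 value was taken as its difference from the mean of all libraries, and the median in the bin of lowest GC content was subtracted from that in the bin of highest GC content. This tilt was 0.97, 1.31 and 0.69 in DU145-TFEB and -0.90, -1.26 and -0.86 in DU145-vector. DU145-TFEB replicate 2, with the highest tilt, had the lowest UPF2, UPF3B and SMG1 and the highest UPF1 and SMG5, and replicate 3, with the lowest tilt of the group, had the reverse. From its group mean, UPF2 deviated by -0.59 in DU145-TFEB replicate 2 and by 0.44 in replicate 3 (log2 scale), and SMG1 by -0.55 and 0.50. In DU145-vector, replicate 2 had the lowest tilt, and UPF2, UPF3B and SMG1 were highest and UPF1 lowest there. SMG5 did not keep this order in DU145-vector. The part of the GC trend in the difference between the groups was not tested, because all libraries of a group lie on the same side.

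After each library had been freed of its trend against GC content and gene length, UPF2 had a log2 fold change of -1.97 (standard error 0.17), UPF3B of -1.71 (0.15) and SMG1 of -1.37 (0.11). UPF1 had 0.15 (0.05) and SMG5 -0.53 (0.06), each again with its standard error. The median of all listed genes was then -0.30. UPF2 and UPF3B stayed past the cutoff of 1.5, whereas SMG1 did not. UPF1 remained higher only slightly.

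**Figure D3:**
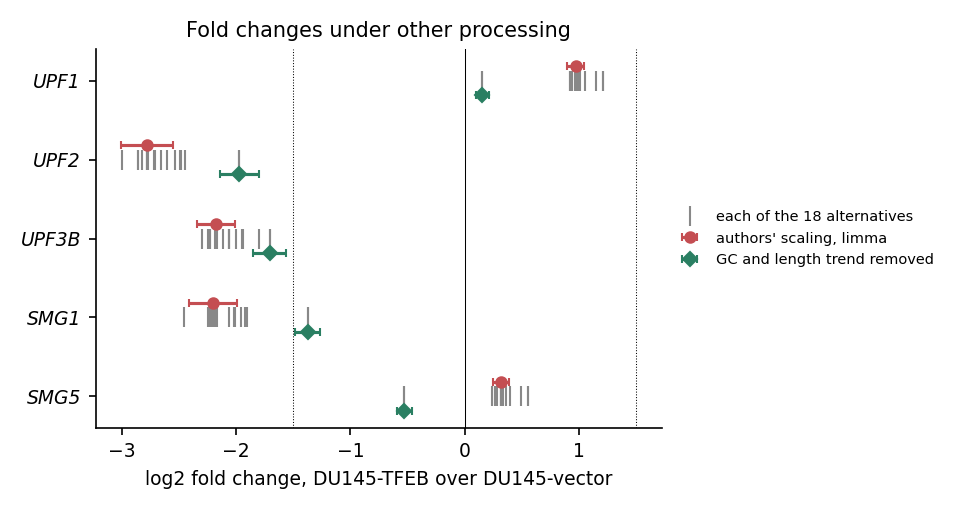
Log2 fold change of DU145-TFEB over DU145-vector for the 5 NMD factors with the authors' scaling (red circles), with the GC and length trend removed (green diamonds) and in each of 18 alternatives (grey ticks). Bars are standard errors; UPF2 runs from -2.998 to -1.97 and SMG5 from -0.53 to 0.56.

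Other parts of the decay pathway were compared with lists written from general knowledge. Their counts stand beside 16.5% of all listed genes called lower and 52.4% lower. With the GC and length trend removed, 449 of 10537 genes were called lower, and none of the genes of the 5 lists that follow was called. The median of all listed genes was then -0.30, so a value near this is that of a typical listed gene. Of 10 genes of the exon junction complex and its partners, 7 were listed, with a median log2 fold change of -0.46. The only call among them was PNN, a nuclear speckle protein, with -1.57, and it was called in only 1 of the 7 other scalings. MAGOHB, a core subunit, had -0.54, or 0.53 with the GC and length trend removed. SAP18 had 0.33 and PYM1, which takes the complex apart at the ribosome, had 0.30, or -0.50 with the trend removed.

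Of 19 other NMD and translation termination factors, 17 were listed, with a median of -0.75 and 2 calls, both lower, which is a smaller share than among all listed genes. NCBP1, the large subunit of the nuclear cap-binding complex, had 421 ± 77.3 normalized counts in DU145-TFEB against 1773 ± 131 in DU145-vector (SD, n = 3), a log2 fold change of -2.09, and stayed called in 6 of the 7 other scalings. STAU2, a double-stranded RNA-binding protein, had -1.54 and was called in 1 of the 7. At the other end, RUVBL1 had 0.49 and the helicase MOV10 0.48, which was -0.28 for MOV10 with the trend removed.

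Of 40 genes of the general mRNA decay machinery, 32 were listed. Of these, 25 had a lower and 7 a higher level in DU145-TFEB, with a median of -0.81, and 8 were called, all lower. In the GC bin from 40.2% to 44.4%, which holds the median GC content of this list, 28.1% of all genes were called lower. The number called in the list was 5 with the upper quartile, median of ratios, quantile normalization or DESeq2. DIS3, a catalytic subunit of the exosome, had 216, 143 and 319 normalized counts in DU145-TFEB and 1057, 1198 and 1035 in DU145-vector. Its log2 fold change was -2.35, and that of XRN1, the cytoplasmic 5′ to 3′ exonuclease, was -2.09. Both were called in 6 of the 7 other scalings. SKIV2L, the helicase of the cytoplasmic exosome, had 0.84 and the deadenylase subunit PAN2 0.78, although SKIV2L had -0.02 with the trend removed.

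SMG1 belongs to the family of PI3K-related kinases. Of 8 genes for the other kinases of this family and the factors that assemble them, 6 were listed, and 3 were called, all lower. Only 1 was called with the upper quartile, the median of ratios or DESeq2. ATR and PRKDC, kinases of the DNA damage response, had log2 fold changes of -2.33 and -1.65, and the third call was ATM with -1.65, which was named after its values were seen. ATR was called in 6 of the 7 other scalings, PRKDC in 3 and ATM in 1. TTI1 had -0.32 and TELO2 0.52, or -0.59 for TELO2 with the trend removed.

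Transcripts known as NMD substrates were listed for 14 of 27 genes. Their median log2 fold change was 0.29, with 8 genes higher and 6 lower. None was called higher and 3 were called lower. These 3 were splicing factors, SRSF6 with -1.79, SRSF3 with -1.68 and SRSF7 with -1.503. SRSF7, named after its values were seen, was called in 1 of the 7 other scalings, SRSF3 in 4 and SRSF6 in 6. With the median of ratios or DESeq2, 1 gene of this list was called. The highest were GADD45B, with 2601 ± 300 against 1371 ± 16.1 normalized counts (SD, n = 3 per group) and a log2 fold change of 0.92, and UPP1 with 0.88. With the trend removed, GADD45B had -0.08 and UPP1 0.75. The counts are of whole genes, so that the isoforms that NMD degrades were not measured apart from the others.

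**Figure D4:**
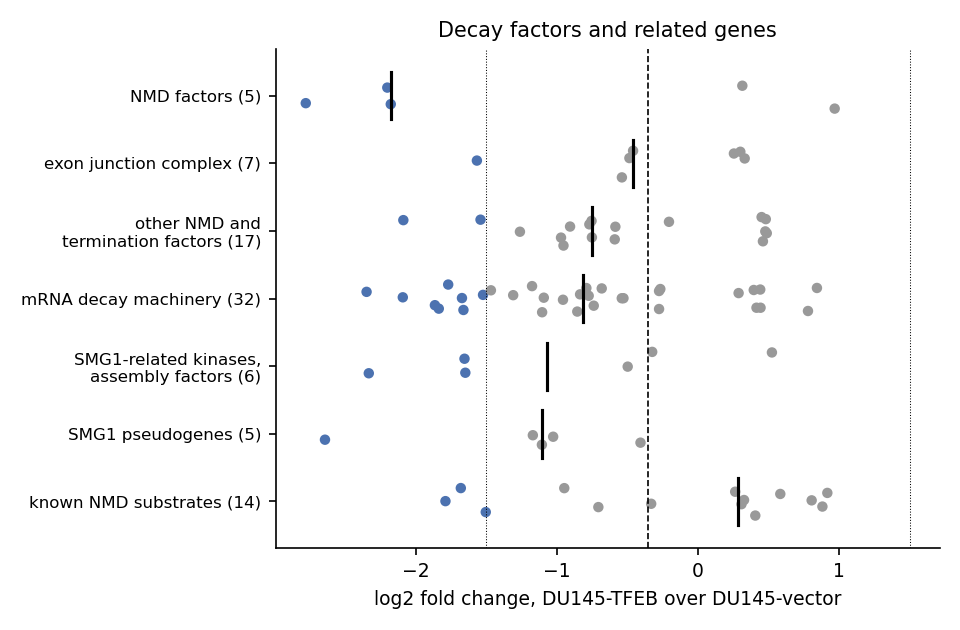
Log2 fold change of DU145-TFEB over DU145-vector for the NMD factors and 6 lists of related genes, with the number of listed genes in parentheses. Each point is a gene, blue where called lower and grey where not called, solid bars are list medians, the dashed line is the median of all listed genes at -0.36, and dotted lines mark 1.5 in either direction; no gene of these lists was called higher.

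The genes whose values ran most like those of UPF2 over the 6 libraries were sought among 8616 genes of the table whose mean was 100 or more normalized counts. The measure was the Euclidean distance between log2 values centred on each gene's own mean. Among the nearest were BICC1 at 0.35, FAM208B at 0.37, HELZ at 0.40 and SLC7A11 at 0.41. BICC1 and FAM208B lie on chromosome 10, as UPF2 does, while 4.16% of the genes compared lie there. From the middle of UPF2, BICC1 lies at 46.7 Mb and FAM208B at -6.26 Mb. Of this pair, only FAM208B is within the 10 Mb looked at next, and it is counted there.

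The surroundings of UPF2 were therefore looked at, a step chosen after these values were seen. Within 10 Mb of UPF2, 44 other genes of that level were listed. Of these, 42 were lower in DU145-TFEB, as were 4427 of the 8616 genes compared. With the authors' scaling, the 44 genes centred on -1.12 (median, log2 scale), and their median GC content was 43.8%. All listed genes with 40.2% to 44.4% GC centred on -1.10, so on this scale the region was like other genes of that GC content. With the trend against GC content and length removed, the 44 genes had a median of -0.75. That of all 8616 genes was -0.30, and 41 of the 44 lay below the latter. None of the 44 was lower than UPF2 itself on this scale, but UPF2 was chosen for its decrease and did not stand alone. PROSER2, at -0.13 Mb from the middle of UPF2, had -1.92, and UPF2 had -1.97 (standard error 0.17). The median of the 44 genes minus that of all genes was -0.27, -0.22 and -0.29 in DU145-TFEB and 0.23, 0.25 and 0.24 in DU145-vector, each gene being taken from its mean over all libraries. All 3 libraries of each group were thus alike in this respect.

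**Figure D5:**
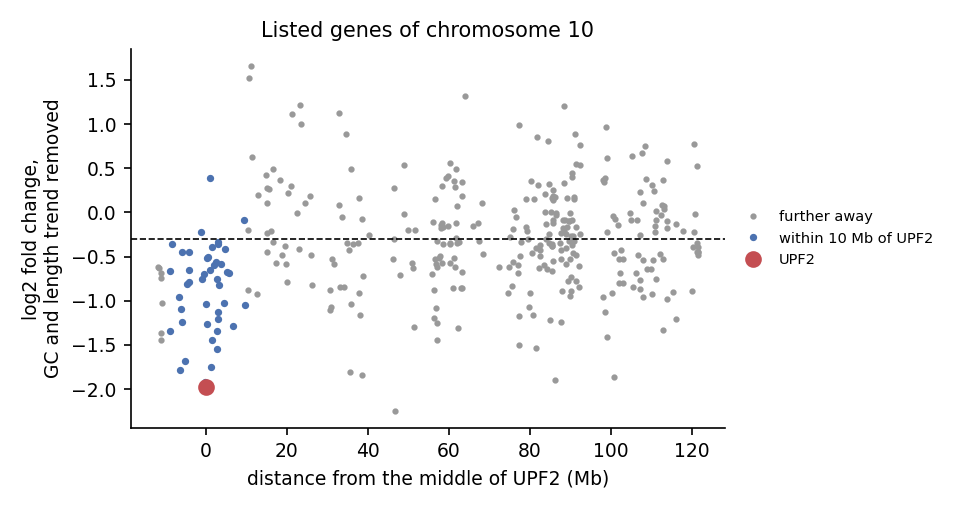
Log2 fold change with the GC and length trend removed for listed genes of chromosome 10 with a mean of 100 or more normalized counts, against the distance from the middle of UPF2 in Mb. UPF2 is red at -1.97, the 44 genes within 10 Mb are blue, and the dashed line is the median of all listed genes of this level at -0.30; 41 of the 44 blue points lie below it.

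The surroundings of the other members did not look like this. With the trend removed, 13 of 28 genes within 10 Mb of UPF3B, 27 of 64 of SMG1, 57 of 145 of SMG5 and 43 of 162 of UPF1 lay below the median of all genes. The medians were -0.29 around UPF3B, -0.14 around SMG1, -0.23 around SMG5 and 0.03 around UPF1. No gene around UPF3B or SMG1 was lower than the member itself on this scale.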

How the data were processed

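The RNA-seq data comprised 3 libraries of DU145-TFEB and 3 of DU145-vector cells, grouped by the sample labels. mRNA libraries were made with the NEBNext Ultra kit. The submitters' processing notes name CASAVA 1.8, HISAT2 2.1.0, edgeR and GRCh38 (hg38), and the paper's methods name DESeq2. The read counter, its use of strand and the annotation are not given in the sources used here, but gene positions equal those of GENCODE 29 for 10542 of 10542 genes.

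The authors deposited a normalized signal, each gene's read count divided by 1 size factor per library. Group means, the log2 fold change and the p-values of the authors' own test were also deposited and were not used, apart from the highest adjusted p-value, 0.0499. Dividing by the smallest step of a library gave whole reads for 100% of the values (tolerance 0.01). DU145-vector replicate 3 has a size factor of 1.

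log2(normalized count + 1) of all 10542 genes was fitted in limma 3.58.1 (R 4.3.3), its variance prior following the mean level, with Benjamini-Hochberg adjustment. The pseudocount understates the change of low genes. Normalized values call for limma as the main test, and edgeR 4.0.16 and DESeq2 1.42.0 were run on the recovered reads as alternatives. The GC and length trend was removed from each library by loess (span 0.5) for 10537 genes, from the longest GENCODE 29 transcript and the deposited length. Scripts were tested on simulated counts.

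Replicates were further apart than counting noise allows (chi-square per gene 3.00 to 27.6), and each was counted as a replicate. This cannot show separate cultures, since the GC tilt also differed within groups. Between groups the chi-square per gene was 167 to 331, over genes listed because they differ between these groups. p-values measure only the spread between these samples. With 3 against 3, an exact permutation test (two-sided) cannot go below 0.1.

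The members and lists were chosen with earlier results of these data known. Named genes are the members, the 2 highest and 2 lowest of each list with a mean of at least 100, the listed SMG1 pseudogenes, and the 5 genes nearest to UPF2, not all of which are reported here. Alternatives covered pseudocount, a filter, scaling, tool, replicate block, GC and length trend, and each library left out in turn.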

Additional observations from a re-analysis of the deposited data

How the results depend on the processing

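The calls of UPF2 and UPF3B held in all 18 alternatives, and that of SMG1 in 16 of them. The exceptions for SMG1 were the removal of the GC and length trend without and with the replicate block, each of which left 2 of the 5 NMD factors called. SMG5 turned to -0.53 on the log2 scale in both of these alternatives, and no other NMD factor changed direction. With each library left out in turn, UPF2 lay between -2.998 (without DU145-TFEB replicate 3) and -2.48 (without DU145-TFEB replicate 2), and 3 factors were called each time. Over all listed genes, 1741 were called lower and 268 higher. The number called lower was 1105 with the median of ratios over the listed genes, 808 with quantile normalization, 1078 with DESeq2, 449 with the trend removed and 450 with the trend removed and the replicate block. The number called higher was 70 with a pseudocount of 10, 87 with at least 10 normalized counts in every library, and 466, 563, 484, 151 and 150 in the 5 settings just named. Of the calls, 86.7% were lower with the authors' scaling, 94.4% with a pseudocount of 10, 76.3% with the upper quartile, 70.3% with the median of ratios, 69.0% with DESeq2 and 58.9% with quantile normalization. The median of all listed genes was -0.03 with quantile normalization and -0.12 with the median of ratios. Without each library in turn, 1289 to 2048 genes were called lower and 243 to 295 higher. With the replicate block, 1743 were called lower and 268 higher. Same-numbered libraries had correlations of deviations of -0.06, -0.42 and -0.35. The deviations also hold the GC tilt of each library, so these values cannot tell whether the numbers pair the libraries. The cause of these differences was not tested. Depth limits UPF3B most, with 75 reads in its lowest library.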

Other observations

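The low values around UPF2 did not run on evenly along chromosome 10. The chromosomes were divided into windows of 10 Mb, a step chosen after the values were seen, and 263 windows held at least 10 listed genes with a mean of 100 or more normalized counts. With the GC and length trend removed, the first window of chromosome 10 had the lowest median log2 fold change of all, -0.80, and 20 of its 20 genes lay below the median of all genes. The next window, which holds UPF2, was the 3rd lowest with -0.73, and 28 of its 30 genes lay below that median. The following pair of windows had medians of -0.09 and 0.05 and ranked 251 and 260 of 263. Further along the chromosome, the windows from 40, 60 and 80 Mb were low again, with medians of -0.53, -0.57 and -0.53 and ranks 21, 13 and 20. The ranks are a description of these libraries, and the genes of a window are not replicates.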
